A study of Mus musculus with 39 samples.

Results

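Brown fat releases proteins that act on other tissues, and 7 of these secreted factors were followed in cells of mouse brown fat over a diet time course: Fgf21, Bmp7, Bmp8b, Nrg4, Vegfa, Angptl4 and Igf1. The members were the probes whose gene symbol in the deposited fold change table was 1 of these 7, which gave 14 probes of 40628 probes on the array and 7 of 29411 gene symbols as the table gives them. There was 1 probe each for Bmp8b, Nrg4 and Angptl4, 2 probes each for Fgf21 and Bmp7, 3 for Igf1 and 4 for Vegfa. For a gene with several probes, the brightest on average stands for it.

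Brown fat burns fuel to make heat, and its secreted proteins are often called batokines. FGF21 signals through FGF receptors together with the co-receptor beta-Klotho, BMP7 drives the formation of brown fat cells, BMP8B raises their response to noradrenaline, and NRG4 acts through ErbB receptors, with the liver as a known target. VEGFA recruits blood vessels, ANGPTL4 inhibits lipoprotein lipase, and IGF1 is a growth factor that fat cells and macrophages both make.

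The mice were C57BL/6J, a common laboratory strain, weaned at 3 to 4 weeks and then split into diet groups of 30. LFC mice received a low fat diet with 10% of calories from fat, HFC mice a high fat diet with more sucrose and 60% of calories from fat, and HF5, HF20 and HF75 mice the same high fat diet with 5, 20 or 75 µg of a plant formulation, KAL-1. Each array held RNA of 1 diet at 1 time label, with 10 arrays of LFC, 11 of HFC and 6 of each KAL-1 dose, 39 in all. LFC and HFC ran from Day 1 to Week 18, without LFC at Week 6, and the doses from Week 3 to Week 18. The design text speaks of 3 biological replicates, and how many mice gave the RNA of 1 array is not given in the sources used here. No diet was repeated under 1 time label, so every spread and every test below is over time labels. Where a level differed in these mixed samples, fewer cells of a type and less RNA per cell cannot be told apart. The array titles differed as well, in that 9 titles hold the token BA or BAT and 30 do not. Most of the other titles, that of HFC Week 6 among them, hold B-A or B_A, which differ from BA by a separator. What BA, BAT or B-A stands for was not given in the sources used here.

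Values are log2 of the background-subtracted signal minus the 75th percentile of the array, so 0 is the 75th percentile and each unit is a doubling. That percentile ranged from 18.1 to 3974 intensity units with a median of 129.9, and between 31.2% and 98.0% of spots were well above background. On HF20 Week 15, 71.4% of spots were marked as outliers and left out, on HF5 Week 12 18.6% and on HFC Week 12 11.1%. HF20 Week 15 therefore has no value for Fgf21, Nrg4 and Vegfa, and HFC Day 1 has none for Bmp8b. For HF20 Week 12 the diet field names only the high fat diet, and the array was placed in HF20 by its other labels.

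The labels call the samples infiltrating macrophages, the stromal vascular cells of brown fat. The macrophage markers Emr1 and Csf1r were well above background on all 39 arrays, and so were the fat cell markers Ucp1, Cidea and Adipoq. Of 9 brown fat cell markers, between 7 and 9 were well above background on each array, and of 11 macrophage markers between 5 and 11. The mean level of the brown fat cell markers ranged from -2.02 to 4.98, that of the macrophage markers from -1.66 to 2.21, that of 6 neutrophil markers from -5.00 to 5.25 and that of 6 skeletal muscle markers from -4.33 to 4.89. Transcripts of fat cells, macrophages, neutrophils and muscle were thus all measured in this material, in amounts that differed between arrays.

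Most of the factors were measured on nearly every array, and Fgf21 and Bmp8b on few. Angptl4 and Igf1 were well above background on 39 arrays, Nrg4 and Vegfa on 38, which are all arrays with a value, and Bmp7 on 34. Fgf21 and Bmp8b were well above background on 7 arrays each. Fgf21 was seen on LFC Day 10, Week 12 and Week 18, HFC Week 9, HF20 Week 12, HF5 Week 15 and HF75 Week 15. Bmp8b was seen on LFC Week 12, HFC Week 12 and Week 15, HF5 Week 12 and Week 15, HF20 Week 15 and HF75 Week 15. On their other arrays the values of these genes are at the limit of the measurement.

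**Figure D1:**
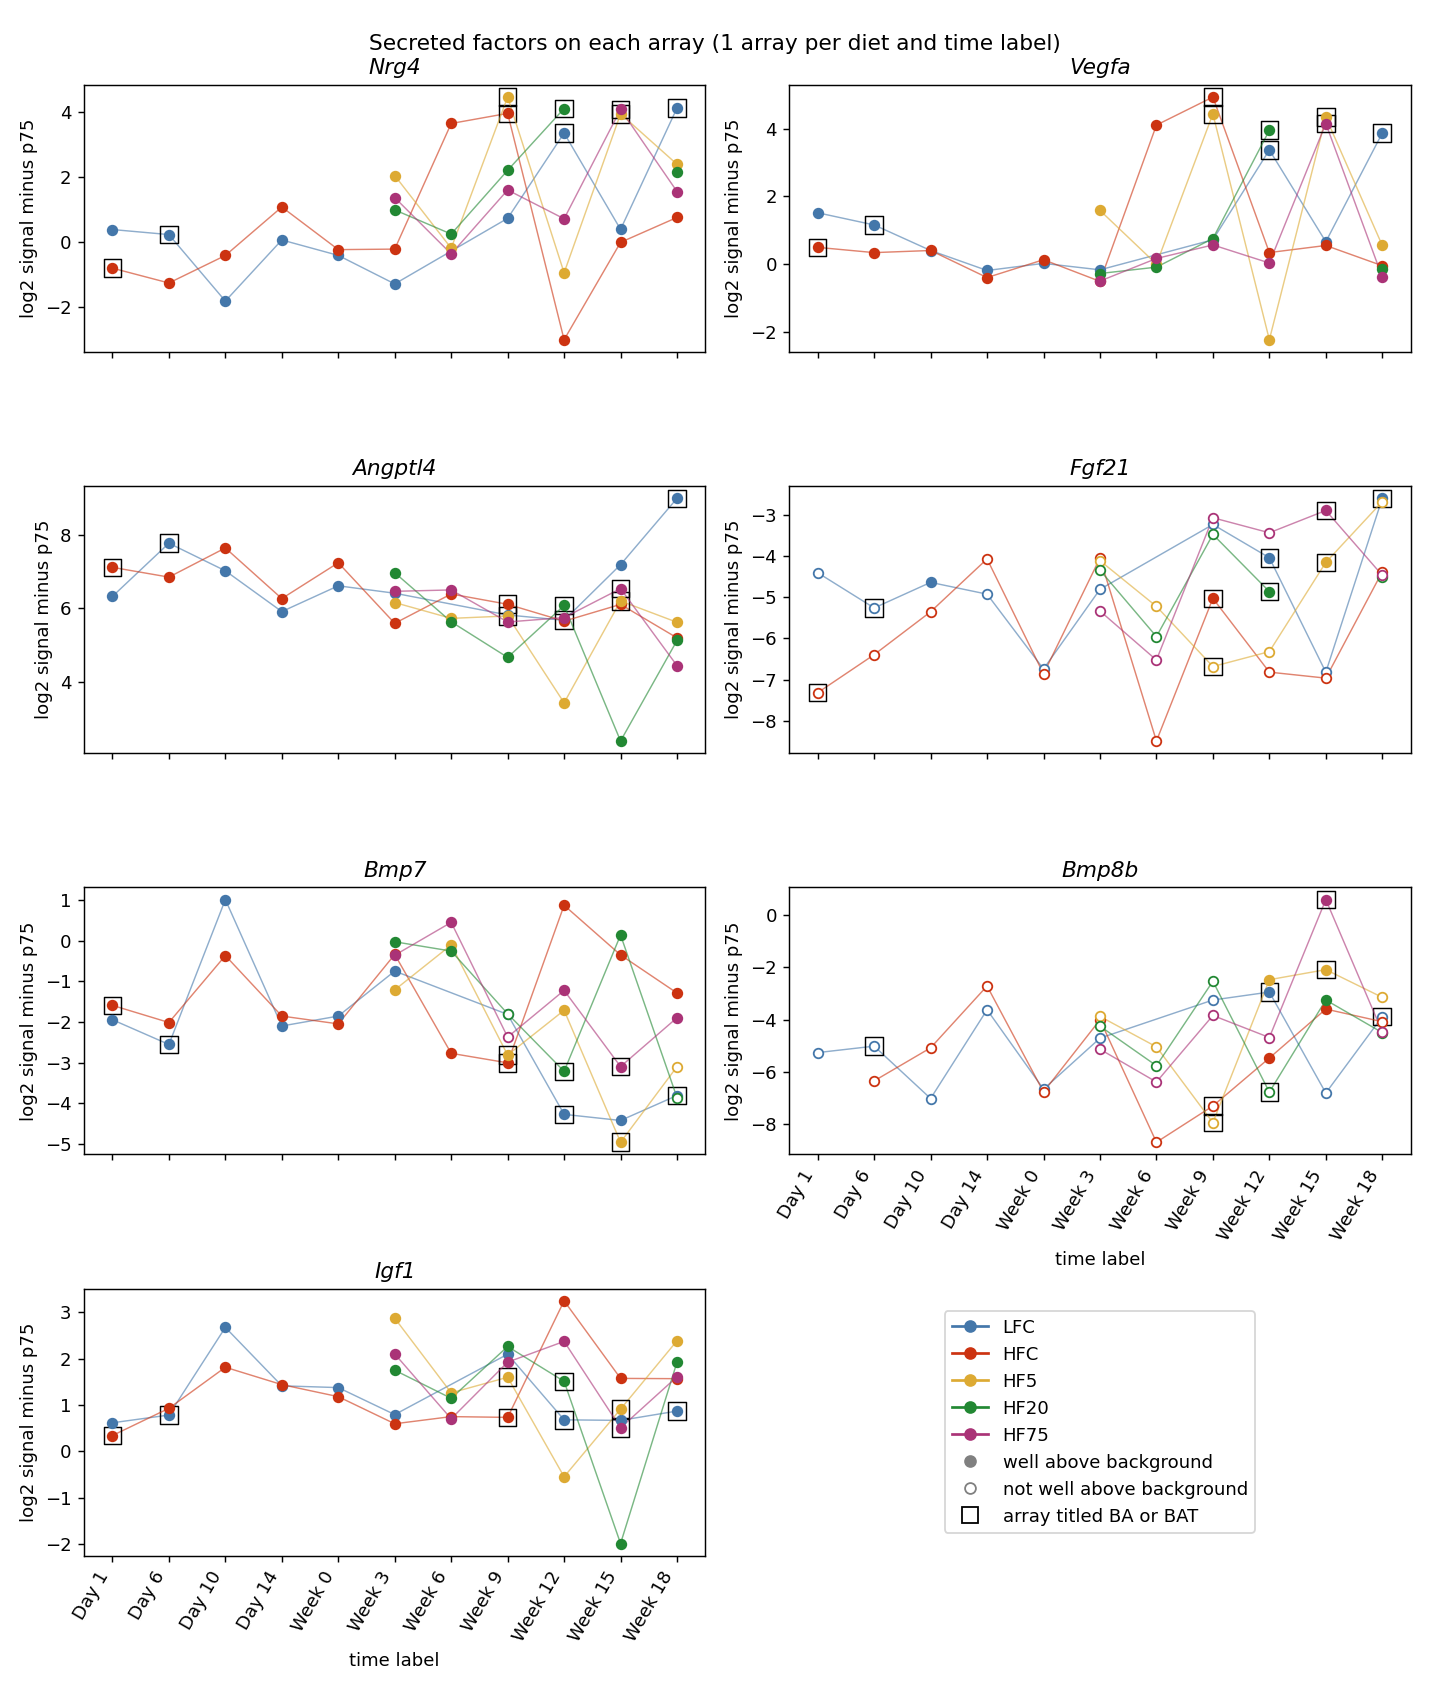
Level of each factor (log2 signal minus the 75th percentile of the array, vertical axis) at each time label (horizontal axis) with 1 point per array, coloured by diet. Lines join arrays of 1 diet, open points were not well above background, and squares mark arrays titled BA or BAT. Nrg4 and Vegfa stand above 3 on the same 8 arrays.

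Nrg4 and Vegfa varied most among the factors that were measured throughout, and they were high on the same arrays. Nrg4, the ErbB ligand, ranged from -1.82 on LFC Day 10 to 4.11 on LFC Week 18 in LFC, with a median of 0.30 (n = 10). In HFC it ranged from -3.01 on Week 12 to 3.94 on Week 9 with a median of -0.23 (n = 11). In the dosed groups its lowest, median and highest values were -0.95, 2.21 and 4.45 in HF5 (n = 6), 0.24, 2.14 and 4.09 in HF20 (n = 5) and -0.37, 1.45 and 4.07 in HF75 (n = 6). The 5 diets overlapped over most of their range.

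Vegfa, the main growth factor of blood vessels, ranged from -0.19 on LFC Day 14 to 3.87 on LFC Week 18 in LFC, with a median of 0.69. In HFC it ranged from -0.51 on Week 3 to 4.94 on Week 9 with a median of 0.34. Its lowest, median and highest values were -2.24, 1.07 and 4.44 in HF5, -0.28, -0.09 and 3.95 in HF20 and -0.50, 0.10 and 4.15 in HF75. Both genes were above 3 on the same 8 arrays, HFC Week 6, HF5 Week 9, HFC Week 9, LFC Week 12, HF20 Week 12, HF5 Week 15, HF75 Week 15 and LFC Week 18. On these arrays Nrg4 was at 3.34 or more and Vegfa at 3.37 or more, whereas the highest value elsewhere was 2.38 for Nrg4 and 1.59 for Vegfa. The 8 arrays come from all 5 diets and 5 time labels, and 7 of the 8 are titled BA or BAT.

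The stretches before the annotated starts of Nrg4 and Vegfa are shown because both genes were high on the same arrays. Each is the 250 bases before the start in RefSeq's annotation of GRCm38.p6, for Nrg4 chr9:55283626-55283875 and for Vegfa chr17:46032378-46032627, both on the minus strand and written 5′ to 3′. Vegfa has a second annotated start in the table whose stretch is not printed. Capitals mark matches on either strand to ACGTG, the core letters of a hypoxia response element, or to AGGTCA, a nuclear receptor half-site.
Nrg4: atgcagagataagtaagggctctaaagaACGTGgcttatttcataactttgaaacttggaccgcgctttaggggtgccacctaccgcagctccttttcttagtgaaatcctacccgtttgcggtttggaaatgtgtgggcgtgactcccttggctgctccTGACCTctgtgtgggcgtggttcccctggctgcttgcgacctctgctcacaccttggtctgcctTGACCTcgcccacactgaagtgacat
Vegfa: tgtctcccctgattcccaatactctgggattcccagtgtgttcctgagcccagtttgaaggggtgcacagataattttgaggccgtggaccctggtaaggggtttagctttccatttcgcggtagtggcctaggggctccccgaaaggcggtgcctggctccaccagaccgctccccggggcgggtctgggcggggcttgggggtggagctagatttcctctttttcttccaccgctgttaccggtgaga
The Nrg4 stretch holds 1 match to ACGTG and 2 to AGGTCA, and the Vegfa stretch printed holds 0 of either. The stretch before the second annotated start of Vegfa, chr17:46025164-46025413, holds 1 match to ACGTG and 0 to AGGTCA. Of 32851 promoter stretches of the same length, 16.6% hold ACGTG and 14.0% hold AGGTCA. The longer letters TGACGTCA and TCAAGGTCA, which are in 1.55% and 0.387% of the stretches, are in none of these stretches. A match is a description of letters and not a bound site.

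Angptl4, the secreted inhibitor of lipoprotein lipase, was well above background on every array. It ranged from 5.67 to 9.0 in LFC with a median of 6.51 (n = 10) and from 5.19 to 7.65 in HFC with a median of 6.27 (n = 11). Its lowest, median and highest values were 3.42, 5.76 and 6.20 in HF5, 2.38, 5.38 and 6.97 in HF20 and 4.44, 6.11 and 6.54 in HF75 (n = 6 each). The 2 lowest values, 3.42 and 2.38, belong to HF5 Week 12 and HF20 Week 15, the arrays with the most spots left out. The probe was saturated on 8 arrays, HFC Day 1, Week 6 and Week 9, HF5 Week 9 and Week 15, LFC Week 12, HF20 Week 12 and HF75 Week 15, where the true level may be higher than the value.

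Igf1, which activates the IGF1 receptor, stayed within a narrower range. It was between 0.61 and 2.67 in LFC with a median of 0.83 and between 0.34 and 3.25 in HFC with a median of 1.18. Its lowest, median and highest values were -0.55, 1.43 and 2.87 in HF5, -1.99, 1.63 and 2.26 in HF20 and 0.51, 1.77 and 2.37 in HF75. Here too the lowest values were those of HF5 Week 12 and HF20 Week 15. The highest value, 3.25, belongs to HFC Week 12, the other array with over 10% of spots left out. That array also had the lowest brown fat cell marker mean of all arrays, -2.02, and the highest macrophage marker mean, 2.21. The highest LFC value, 2.67, was on LFC Day 10, where 0.089% of spots were marked.

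Bmp7, the inducer of the brown fat lineage, ranged from -4.42 to 1.01 in LFC with a median of -2.02 and from -3.01 to 0.87 in HFC with a median of -1.59. In the dosed groups its lowest, median and highest values were -4.96, -2.26 and -0.11 in HF5, -3.86, -1.03 and 0.14 in HF20 and -3.10, -1.56 and 0.45 in HF75. It was low on the arrays where Nrg4 was high, between -4.96 on HF5 Week 15 and -2.77 on HFC Week 6. Low values were also seen elsewhere, such as -4.42 on LFC Week 15, where Nrg4 was 0.38.

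Bmp8b, which in brown fat cells is linked to the thermogenic response, ranged from -7.03 to -2.95 in LFC (n = 10) and from -8.71 to -2.71 in HFC (n = 10), with medians of -4.87 and -5.28. Its medians were -3.52 in HF5, -4.38 in HF20 and -4.58 in HF75, and its highest value was 0.60 on HF75 Week 15. Fgf21, a fasting and cold hormone, ranged from -6.82 to -2.61 in LFC (n = 10) and from -8.49 to -4.05 in HFC (n = 11), with medians of -4.73 and -6.40. Its medians were -4.69 in HF5, -4.50 in HF20 and -3.96 in HF75. Most of these values were not well above background, and Fgf21 and Bmp8b had their lowest values on the same array, HFC Week 6.

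The first question of the design is whether the high fat diet changed these factors, and none of the 7 passed the test. In the additive fit of diet and time label, 0 of 31718 probes were called between HFC and LFC at an adjusted p under 0.05, a share of 0%, and 980 (3.09%) were under 0.05 before adjustment, which held for none of the 7. The methods' t-test on the same values called 0 probes after adjustment and 1283 before. Nrg4 differed by -0.24 (SE 0.78, 95% interval -1.83 to 1.35) and Vegfa by -0.24 (SE 0.79, -1.85 to 1.37). Within time labels, HFC was above LFC for Nrg4 at 5 of 10 labels, with differences from -6.35 at Week 12 to 3.22 at Week 9. For Vegfa HFC was above LFC at 3 of 10, from -3.92 at Week 18 to 4.22 at Week 9. At each of these extremes, 1 of the arrays compared was titled BA or BAT.

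The other factors were also spread on both sides of 0. Angptl4 differed by -0.41 (SE 0.47, -1.38 to 0.55) and HFC was higher at 5 of 10 labels. Igf1 differed by 0.13 (SE 0.42, -0.73 to 0.99), with HFC higher at 5 of 10, and Bmp7 by 0.83 (SE 0.58, -0.36 to 2.01), with HFC higher at 7 of 10. Fgf21 had a difference of -1.08 (SE 0.53, -2.16 to 0.0048, unadjusted p = 0.0510, adjusted p = 0.999), and HFC was lower at 8 of 10 labels. At none of those 10 labels was Fgf21 well above background on both arrays. Bmp8b differed by -0.32 (SE 0.77, -1.89 to 1.25).

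**Figure D2:**
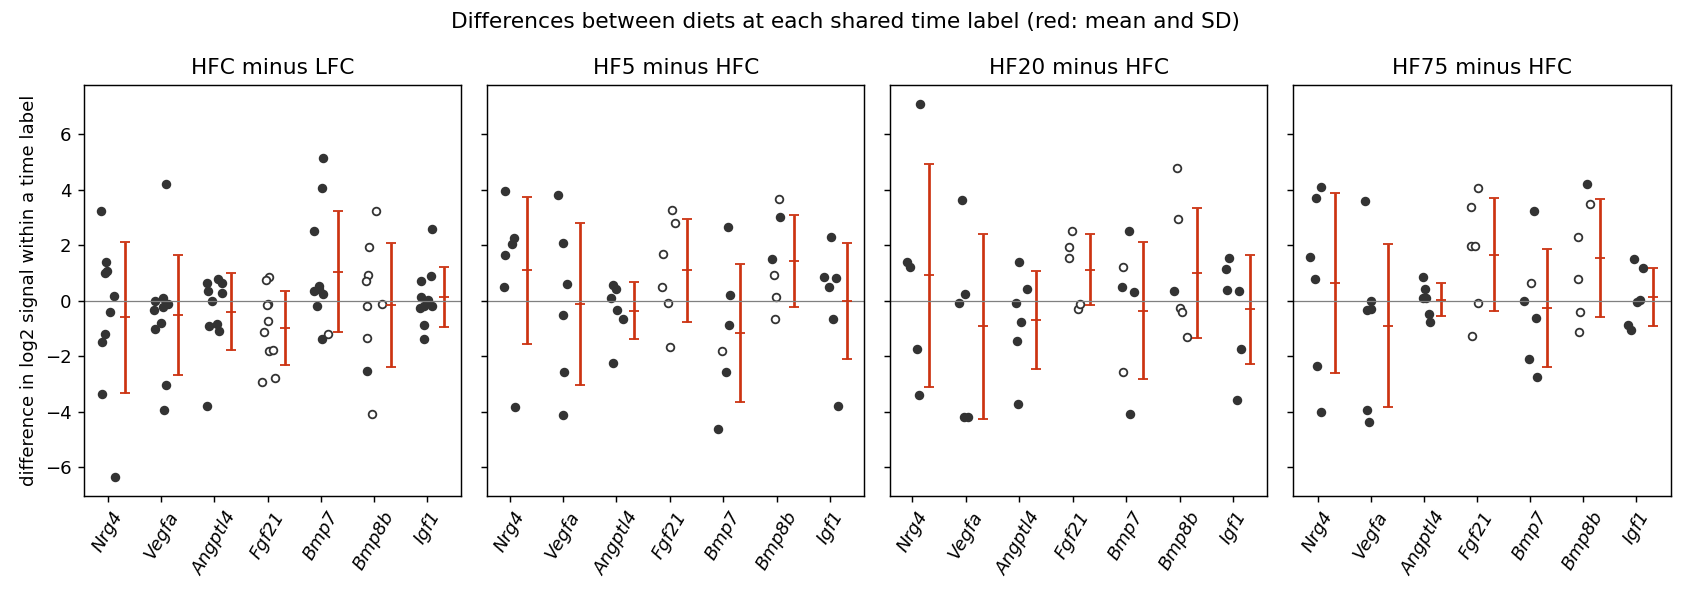
Difference in log2 signal between diets at each shared time label (1 point per label, vertical axis) for each factor (horizontal axis), with the mean and SD in red. Open points had at least 1 array not well above background. The points lie on both sides of 0 in every factor for HFC minus LFC.

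The second question is whether KAL-1 changed the factors in mice on the high fat diet, and again none of the 7 passed. No probe was called for HF5, HF20 or HF75 against HFC (0% of 31718 each). Before adjustment 505 probes (1.59%) were under 0.05 for HF5, 896 (2.82%) for HF20 and 1213 (3.82%) for HF75. The methods' t-test called 0 after adjustment in each, and 1538, 1749 and 2119 before. Nrg4 was 1.00 (SE 0.96) in HF5, 1.13 (SE 1.03) in HF20 and 0.54 (SE 0.96) in HF75 relative to HFC. Vegfa was -0.05 (SE 0.97), -0.44 (SE 1.04) and -0.83 (SE 0.97). Angptl4 was -0.65 (SE 0.59), -0.99 (SE 0.59) and -0.25 (SE 0.59). Each was smaller in size than the SD of the differences taken at single time labels. That SD was, for example, 2.66 for Nrg4 in HF5 and 1.77 for Angptl4 in HF20.

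The remaining factors gave wide intervals as well. Bmp7 was -0.79, 0.02 and 0.11 relative to HFC in HF5, HF20 and HF75 (SE 0.72 each), Igf1 was 0.15, -0.16 and 0.28 (SE 0.52 each) and Bmp8b was 1.21, 0.79 and 1.32 (SE 0.91 each). Fgf21 was 0.98 (SE 0.65), 1.16 (SE 0.70) and 1.55 (SE 0.65), and the last of these had an unadjusted p of 0.0249 and an adjusted p of 1.00. It was the only factor under 0.05 before adjustment in a diet comparison, that is 1 of 7 beside 3.82% of all probes. HF75 was above HFC for Fgf21 at 4 of 6 labels, and at 0 of the 6 were both arrays well above background. The HFC arrays on which these comparisons rest are shared by the 3 doses.

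Across the steps of dose from HFC to HF75, over 24 arrays, 0 of 31718 probes were called (0%), and 2351 (7.41%) were under 0.05 before adjustment. Fgf21 had a slope of 0.53 per step (SE 0.22, unadjusted p = 0.0239, adjusted p = 0.558), and the other 6 factors had slopes between -0.30 (Vegfa) and 0.42 (Bmp8b). It was the only factor under 0.05 before adjustment, beside 7.41% of all probes. Among these 24 arrays Fgf21 was well above background only on HFC Week 9, HF20 Week 12, HF5 Week 15 and HF75 Week 15. All of these are titled BA or BAT. Over time in LFC and HFC, 0 probes were called (0%), and 4087 (12.9%) were under 0.05 before adjustment. The slopes per doubling of days lay between -0.12 (Bmp7) and 0.33 (Nrg4, SE 0.18, unadjusted p = 0.0731). No factor passed in either direction over dose or time.

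**Figure D3:**
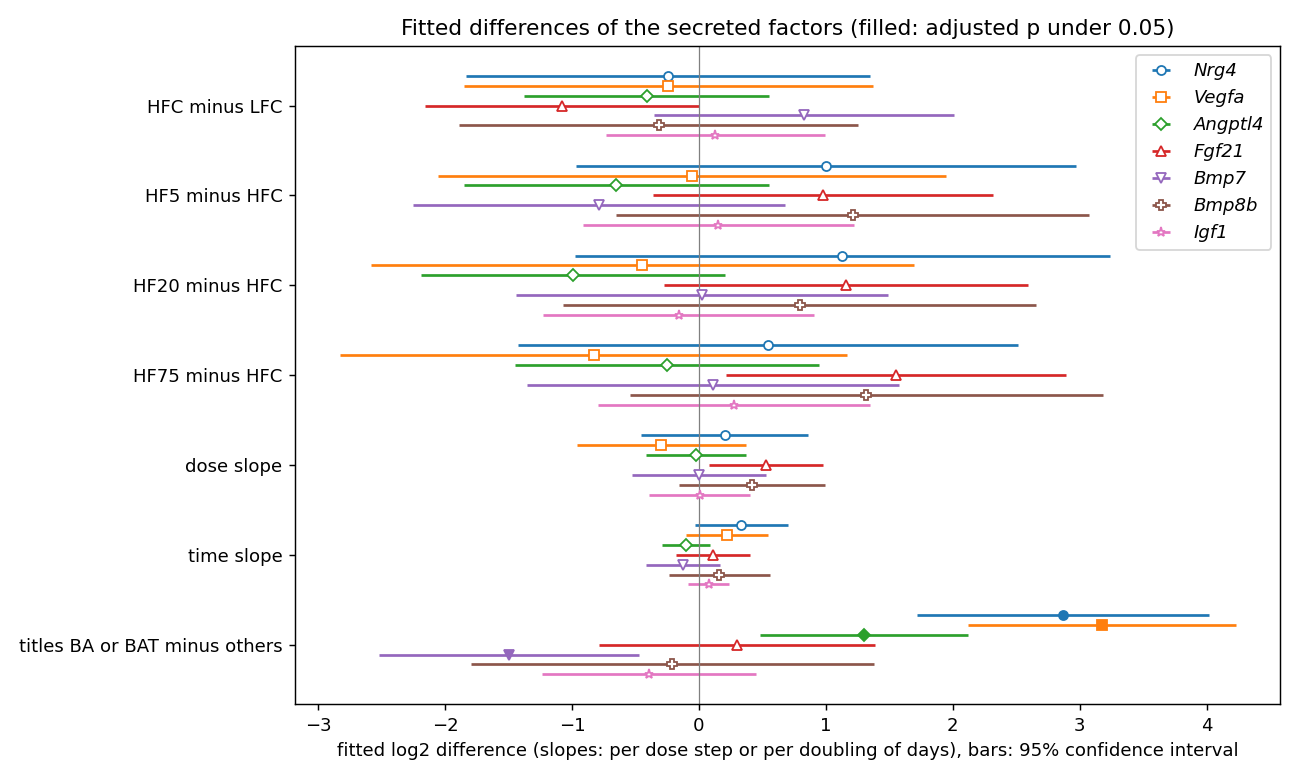
Fitted log2 difference (horizontal axis) of each factor in each comparison (vertical axis), with bars for the 95% confidence interval and filled symbols for an adjusted p under 0.05. The slopes are per step of dose or per doubling of days. The 4 filled symbols, Nrg4, Vegfa, Angptl4 and Bmp7, are all in the comparison of array titles.

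The comparison that separated the factors was that of array titles. With diet and time label in the fit, the 9 arrays titled BA or BAT had higher Vegfa, Nrg4 and Angptl4 and lower Bmp7 than the other 30. This token also separated much of the array, since 15986 of 31718 probes (50.4%) were called, 6979 higher and 9007 lower, and 18018 (56.8%) were under 0.05 before adjustment. The 4 of 7 factors called are therefore close to the share of all probes. The split between higher and lower depends on scaling, with 43.7% of called probes higher here, 66.9% after quantile normalization and 29.7% after normexp background correction. The median of all probes was -0.16, 0.24 and -1.07 under these 3 scalings. Relative to that median Vegfa was 3.34, 2.67 and 4.03, Nrg4 3.03, 2.27 and 4.45, Angptl4 1.47, 1.20 and 3.44, and Bmp7 -1.33, -1.22 and -0.94.

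Vegfa was between 0.49 and 4.94 with a median of 3.95 on the titled arrays (n = 9) and between -2.24 and 4.11 with a median of 0.13 on the others (n = 29). Its fitted difference was 3.18 (SE 0.51, adjusted p = 0.000100). Its other 3 probes gave 1.80, 2.84 and 3.24, so all 4 probes of Vegfa were called higher. Nrg4 was between -0.81 and 4.45 with a median of 3.94 on the titled arrays and between -3.01 and 3.63 with a median of 0.38 on the others, a fitted difference of 2.87 (SE 0.56, adjusted p = 0.000361). The titled arrays that were not high were HFC Day 1 and LFC Day 6, and the array without the token that was high was HFC Week 6.

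Angptl4 was 1.30 higher (SE 0.40, adjusted p = 0.00902), with a median of 6.20 on the titled arrays and 6.01 on the others, and it was saturated on 7 of the 9 titled arrays and on 1 of the 30 others. The fitted value is therefore not exact and may understate the difference. Without the time label term the difference was 0.77 and no longer passed (adjusted p = 0.0910). Bmp7 was 1.50 lower on the log2 scale, at -1.50 (SE 0.50, adjusted p = 0.0154), with medians of -3.10 and -1.50. Its second probe gave -1.03 (adjusted p = 0.0501). The call of Bmp7 was lost without the arrays of Week 12 (-1.03, adjusted p = 0.168), without those of Week 15 (-1.28, adjusted p = 0.0552), without the 3 arrays with many marked spots (-1.01, adjusted p = 0.0856) and after quantile normalization (-0.98, adjusted p = 0.0796). Igf1 differed by -0.39 (SE 0.41), Fgf21 by 0.30 (SE 0.53) and Bmp8b by -0.21 (SE 0.77), none of which passed. Of the arrays with a value, Fgf21 was well above background on 6 of 9 titled arrays and 1 of 29 others. Bmp8b was well above background on 3 of 8 and 4 of 30. The fitted values of Fgf21 and Bmp8b thus rest in large part on values at the limit of the measurement.

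**Figure D4:**
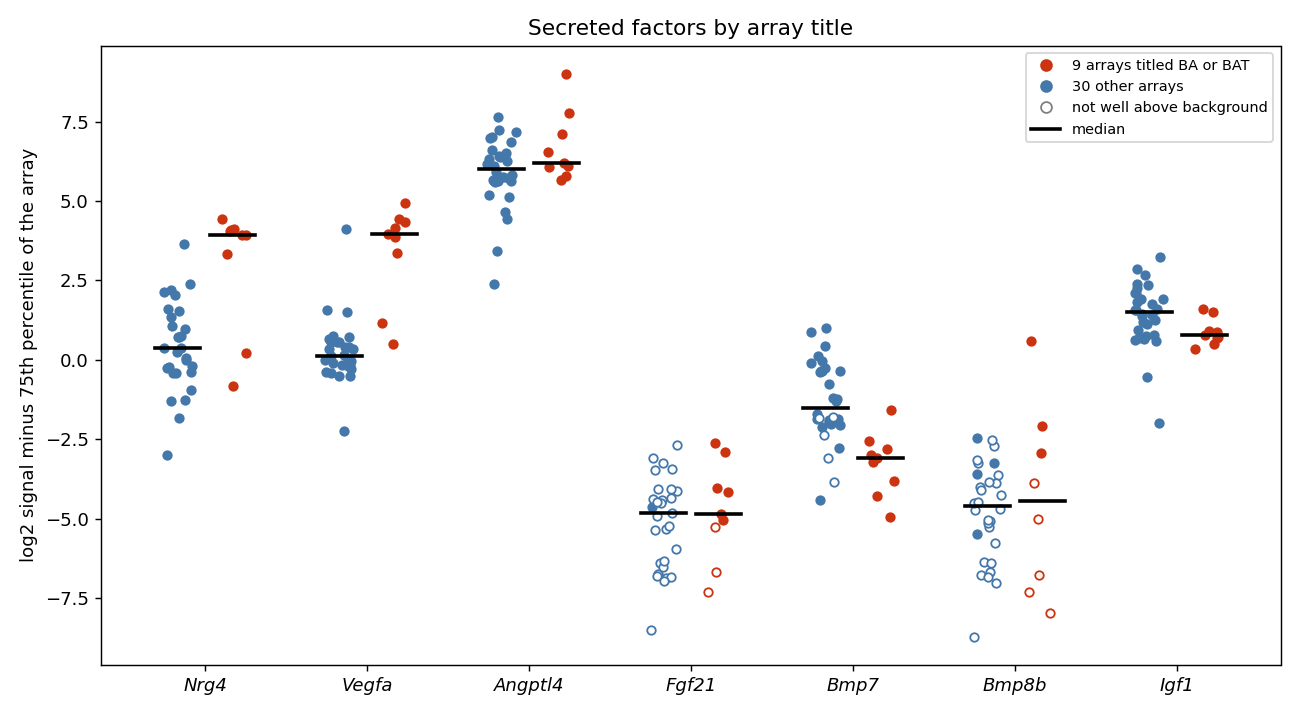
Level of each factor (log2 signal minus the 75th percentile of the array, vertical axis) on the 9 arrays titled BA or BAT (red) and the other arrays (blue), 1 point per array, with the median as a black bar and open points where the probe was not well above background. The medians of Vegfa are 3.95 and 0.13, and those of Nrg4 3.94 and 0.38.

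Within time labels, arrays of both kinds were present at Day 1, Day 6 and every label from Week 9 on. At each of the 4 labels from Week 9 on, every titled array had more Nrg4 and more Vegfa than every other array of the same label, with mean differences, in order of time, of 2.69, 4.80, 3.82 and 2.41 for Nrg4 and of 4.01, 4.29, 3.65 and 3.88 for Vegfa. At Day 1 the titled array was lower, by -1.19 for Nrg4 and -1.02 for Vegfa, and at Day 6 it was higher, by 1.49 and 0.82. On the 3 scan dates that held arrays of both kinds, the titled arrays were higher by 2.55 to 4.80 for Nrg4 and by 3.62 to 4.29 for Vegfa. These dates held the arrays of Week 12, those of Week 15 and part of those of Week 18, so the differences largely repeat those by label. Bmp7 was lower on all 3 of these dates, by -3.05 to -1.61, and Angptl4 higher, by 0.94 to 3.59. For Angptl4 all 4 titled arrays on the dates at Week 12 and Week 15, which include the 0.94, were saturated. The other arrays on these dates included HF5 Week 12 at 3.42 and HF20 Week 15 at 2.38, with 18.6% and 71.4% of spots marked. On neither date was every titled array above every other array for Angptl4. LFC Week 15, at 7.19, was above both titled arrays of its date. The differences within these dates without the marked arrays were not tested.

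Marker levels and brightness moved with the titles, and their part in the result was not tested. The 9 general fat cell markers had a mean level between 2.50 and 5.55 on the titled arrays (median 4.71) and between 0.67 and 4.94 on the others (median 3.16). Those of brown fat cells were between 1.34 and 4.98 (median 4.03) and between -2.02 and 4.41 (median 2.90). Of the general fat cell markers 6 were called higher and Fabp4 lower (-2.36). Of the 9 brown fat cell markers 4 were called higher and 0 lower. On the titled arrays the medians of Fabp4, Adipoq, Plin1, Cfd and Cidec lay between 6.10 and 6.20, where the often saturated Angptl4 had 6.20. The brown fat cell markers Ucp1, Cidea, Cox8b and Cox7a1 had medians of 6.11, 6.16, 6.14 and 6.17 there. On the others their medians were 6.31, 6.83, 5.85 and 6.10. Fabp4 had a median of 9.42 on the others. Saturation was read for the secreted factors only, and whether it limited these marker levels, the lower Fabp4 included, was not tested. Macrophage markers were lower on the titled arrays in all 11 genes, 6 of them called, and neutrophil markers in all 6, with 6 called, beside 9007 (28.4%) of all 31718 probes called lower and 6979 called higher. The neutrophil mean was between -4.54 and 1.39 on the titled arrays (median -3.60) and between -5.00 and 5.25 on the others (median 1.16). The skeletal muscle mean was between -4.33 and 4.89 (median 3.10) and between -2.14 and 4.55 (median 1.44), with 0 of 6 called. The 75th percentile of signal was between 123.6 and 1289 (median 852.4) on the titled arrays and between 18.1 and 3974 (median 81.1) on the others. The detection floor, the lowest log2 signal among probes well above background minus the 75th percentile of the array, was between -6.99 and -3.11 (median -6.06) on the titled arrays and between -6.55 and -0.83 (median -3.01) on the others.

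Over the arrays, Nrg4 followed the mean of the general fat cell markers with r = 0.89 and that of the brown fat cell markers with r = 0.82 (n = 38). Vegfa had r = 0.72 and 0.49 with these means and r = -0.72 with the neutrophil mean. Bmp7 had r = 0.61 with the fibroblast mean, r = 0.66 with the mesothelial mean and r = -0.63 with the brown fat cell mean. Igf1 had r = 0.60, 0.59 and 0.52 with the mesothelial, macrophage and fibroblast means, and Angptl4 had r = 0.53 with the endothelial mean. The mesothelial mean was 0.57 on LFC Day 10 and 0.85 on HFC Week 12, and -2.71 or lower on the other arrays with a value. On the median array 0 of 5 mesothelial markers were well above background. Bmp7 had its highest values on LFC Day 10 and HFC Week 12, and r without these arrays was not tested. Vegfa also followed array brightness, the log2 of the 75th percentile, with r = 0.67, and Nrg4 with r = 0.28. These values describe arrays that share slides, scan dates and time labels.

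**Figure D5:**
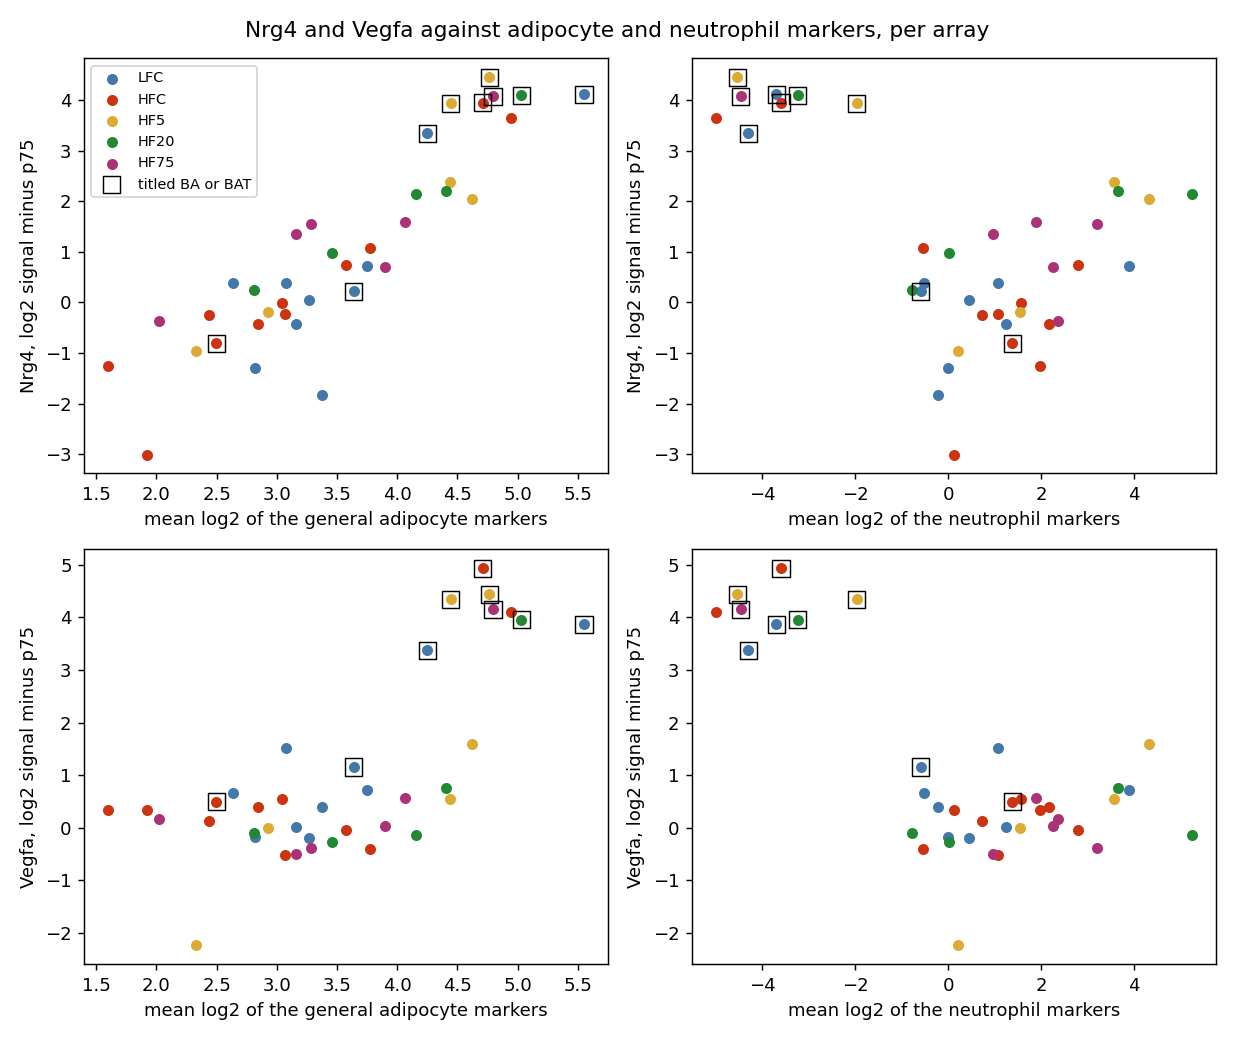
Level of Nrg4 (top) and Vegfa (bottom), as log2 signal minus the 75th percentile of the array, against the mean log2 level of general fat cell markers (left) and neutrophil markers (right), 1 point per array, coloured by diet, with squares on arrays titled BA or BAT. The 8 arrays with Nrg4 and Vegfa above 3 have the 8 lowest neutrophil means, from -5.00 to -1.97, with -0.78 or more on the others.

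Nrg4 and Vegfa had r = 0.79 with each other over 38 arrays, and r = 0.45 over the 29 without the token. The genes most like each factor were taken from 13019 others measured on at least 30 arrays. For Nrg4 they were Hibch, Lyrm5 and Plin5 (r = 0.97 each, and 0.95, 0.94 and 0.93 over the 29 arrays without the token). For Vegfa they were Gtf2ird1, Fam82a2 and Gnpat (r = 0.96, 0.95 and 0.95, and 0.84, 0.85 and 0.85 without the titled arrays). The 29 arrays still include HFC Week 6, and whether other genes came nearer among them was not tested.

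For Angptl4 the nearest genes were Ap3b1, Ppm1f and Fam38a (r = 0.88 each). For Igf1 they were C1qc, a complement gene of macrophages (r = 0.83), Gm5278 and 5730427N09Rik (r = 0.80 each), and for Bmp7 Spon2, Gpc3 and Thbs3 (r = 0.88, 0.86 and 0.86). Fgf21 and Bmp8b had r = 0.67 with each other over 37 arrays, where most values of both were not well above background.

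The receptors, partners and targets of the factors were not called in any comparison of diet, dose or time. The title comparison called many of them, as it did 50.4% of all probes, 6979 of 31718 higher and 9007 lower, and the counts below are read beside these shares, with nothing called particular to a list. Differences are given for genes well above background on more than 50% of the arrays of both kinds, and the others called are named with the arrays on which they were seen. For NRG4, 4 of 5 measured partners were called lower on the titled arrays. They were the receptors Erbb4 (-1.60), Erbb3 (-1.24) and Erbb2 (-1.18) and the sister ligand Nrg1, which was well above background on 2 of 9 titled arrays and 21 of 30 others. The ligand Nrg4 was thus higher and 3 receptors of the family lower on the same arrays. For VEGFA 3 of 11 were called lower and 0 higher. They were the ligands Pgf (-1.42) and Vegfc (-1.34) and the lymphatic receptor Flt4, seen on 9 of 9 titled arrays and 15 of 30 others.

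For ANGPTL4, 6 of 9 were called higher and 1 lower. Lpl, the lipase it inhibits, was 1.69 higher, and Lmf1, which matures that lipase, 1.93 higher. The nuclear receptors Ppara (2.71) and Pparg (1.69) and the relative Angptl6 (1.40) were higher. Angptl2, called higher, was seen on 8 of 9 titled arrays and 15 of 30 others, and Ppard, called lower, on 6 of 9 and 5 of 30. For FGF21, 2 of 5 were called higher and 1 lower. The co-receptor Klb was higher by 3.21 and Fgfr3 was lower (-1.31), and Fgfr2, called higher, was seen on 8 of 9 titled arrays and 7 of 30 others.

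For the BMPs, 1 of 21 was called higher, the receptor Bmpr1a (0.80), and 7 lower. The signal carriers Smad9 (-2.90) and Smad1 (-1.23), the ligand Bmp4 (-1.84) and the receptors Acvr2b (-0.98) and Bmpr2 (-0.89) were lower. The ligands Bmp2 and Bmp8a, also called lower, were seen on 8 of 9 titled arrays and 14 of 30 others and on 2 of 9 and 5 of 30. For IGF1, 4 of 14 were called higher and 7 lower. The growth hormone receptor Ghr (1.77), the adaptor Irs1 (1.59) and Igf2r (0.59) were higher. The binding proteins Igfbp4 (-3.94), Igfbp6 (-1.86) and Igfbp3 (-1.34), the ligand Igf2 (-2.16) and the receptor Igf1r (-0.99) were lower. Igfals, called higher, was seen on 8 of 9 titled arrays and 2 of 30 others. Igfbp2 and Igfbp1, called lower, were seen on 7 of 9 and 13 of 30 and on 2 of 9 and 5 of 30.

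Of 9 other secreted factors of brown fat, 2 were called higher, Rbp4 (2.17) and Ptgds (2.06), and 3 lower. Fgf2 (-5.36) and Slit2 (-1.74) were lower, and Il6, called lower, was seen on 3 of 9 titled arrays and 29 of 30 others. The medians of these lists, beside -0.16 over all probes, were -1.24 for NRG4, 0.31 for VEGFA, 1.57 for ANGPTL4, 0.61 for FGF21, -0.27 for the BMPs, -0.87 for IGF1 and -0.94 for the other secreted factors. These medians include the genes seen on few arrays.

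Between HFC and LFC, the partners with the smallest p did not pass after adjustment (adjusted p = 0.999 each). They were Angptl2 (1.08) and Angptl6 (-0.49), Chrd (0.67) and Smad6 (-0.58), Fgfr1 (0.53) and Fgfr3 (-0.34), Igf2r (-0.55) and Igfbp6 (0.45), Erbb4 (1.05) and Nrg1 (-0.73), Kdr (-0.56) and Nrp1 (0.38), and Rbp4 (-1.45) and Ptgds (-1.32). Angptl2, Igf2r and Rbp4 were under 0.05 before adjustment.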

How the data were processed

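RNA of stromal vascular cells of brown fat was labelled with 1 dye and hybridised to 39 Agilent mouse arrays. The deposited scanner files hold, per the file headers, an intensity for each spot, background-subtracted in Agilent Feature Extraction 10.5.1.1 (9.1 per the labels) and not normalized between arrays. The series table deposited by the authors holds log2 values shifted to the 75th percentile and set against 1 array of the same time label. The step of setting values against 1 array leaves differences within a label as they are. Fits on that table still differed from those given here, such as Igf1 at -0.17 beside 0.13 for HFC minus LFC. The series table was used for gene symbols and as an alternative, its fold change columns were not used, and 0 columns belonged to no sample.

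The members and gene lists were chosen with earlier results of these data known. Spots flagged as outliers by the scanner software were dropped, the log2 signal of each array was lowered by its own 75th percentile, and spots of 1 probe were averaged. Probes well above background on at least 6 arrays were tested, 31718 in all, and the 7 members' brightest probes all passed. Arrays have no read depth, and signal over background limits the precision.

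Differences were fitted with limma 3.58.1 in R 4.3.3, with diet and time label over all 39 arrays, per step of dose, per doubling of days (weeks counted from Day 14), and for titles with diet and time label. P-values are two-sided, adjusted by Benjamini-Hochberg over all probes tested with a threshold of 0.05. Nothing says that the arrays come from separate animals, so p-values measure the spread between these arrays. The fit was tested on simulated data with 200 changed probes. Of 4-fold changes 64.5% were recovered for HFC minus LFC, 38.0% for HF5, 36.0% for HF20, 38.5% for HF75, 28.5% for the dose slope, 20.0% for the time slope and 70.5% for titles, and of 2-fold changes at most 5.5%.

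Named genes are the 7 members, the 3 genes most correlated with each member measured on at least 30 arrays, list genes past the threshold, and the 2 of each list with the smallest p for HFC minus LFC. Markers were read as the mean of each list. Lists for endothelial cells, fibroblasts and mesothelium were also read. Promoter letters come from RefSeq (GRCm38.p6) and were found for 5 of 7 members by symbol. The alternatives were other scalings, filters, blocks (statmod 1.5.0), weights and sets of arrays. 2 of them, scan date as a random block and the title fit without HFC Week 6, were chosen after seeing the data. Python 3.11.15, numpy 2.4.6, pandas 2.3.3 and matplotlib 3.10.9 were also used.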

Additional observations from a re-analysis of the deposited data

Results flagged for a closer look

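Of 29 sets of arrays, 1 for each factor and diet with 4 to 10 values, 5 held an array that stood apart from the rest by Dixon's criterion, where chance gives about 1 in 20. Vegfa was at 3.95 on HF20 Week 12 and at 4.15 on HF75 Week 15, and both arrays are titled BA or BAT. Bmp8b was at 0.60 on HF75 Week 15. Angptl4 was at 3.42 on HF5 Week 12 and Igf1 at -1.99 on HF20 Week 15, and on these 2 arrays 18.6% and 71.4% of spots were marked as outliers.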

How the results depend on the processing

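Nrg4 and Vegfa stayed called between array titles in every alternative in which they were tested, between 2.18 and 3.91 for Nrg4 and between 2.69 and 4.10 for Vegfa. The values of Bmp7 and Angptl4 that lost their call are in the report. Calls were gained by Bmp8b after normexp (-1.65, adjusted p = 0.00150) and without Week 15 (-1.91, adjusted p = 0.0473), by Fgf21 with scan date in place of the time label (1.50, adjusted p = 0.0456) and, with its sign turned, after normexp, and by Igf1 with array weights (-1.10, adjusted p = 0.000118) and without the arrays with over 10% marked spots (-0.81, adjusted p = 0.00520). No paired analysis was possible because replicate numbers only follow accession order, and the time label that the diets share is already a term of the fit. With slide as a random block the correlation was 0 in the time fit, where no slide held more than 1 array. The signal over background limits Fgf21 and Bmp8b most.

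The number of probes called between HFC and LFC, 0 in the report, was 4 after quantile normalization, 1 among probes well above background on all arrays, 33 with array weights, 1 without the arrays with over 10% marked spots, 2 without the titled arrays, 1 without HF20 Week 12, and 0 to 7 when each time label was left out. For HF75 it was 3 without the titled arrays. For the dose slope it was 44 with array weights and 0 to 9 when time labels were left out. For the time slope it was 6 after quantile normalization, 10 among probes well above background on all arrays, 220 with array weights and 0 to 1 when time labels were left out. For titles it was 10601 after quantile normalization, 26123 after normexp, 24413 with no filter, 2570 among probes well above background on all arrays and 9621 to 18129 when time labels were left out, the lowest without Week 12. The causes of these shifts were not tested.

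Signs of members turned as follows, and of these the title value of Fgf21 under normexp was the one that passed the test. After quantile normalization these were Bmp7 -0.31 and Bmp8b -0.26 for HF20 minus HFC, Bmp7 -0.0159 for HF75 minus HFC, Bmp7 -0.10 and Igf1 -0.0329 for the dose slope and Bmp8b 1.12 for titles. Normexp background correction gave Vegfa 0.30 and Angptl4 0.16 for HFC minus LFC, Igf1 -0.33 for HF5 minus HFC, Igf1 -0.11 for HF75 minus HFC, Igf1 -0.0910 for the dose slope, Fgf21 -0.0778 and Bmp8b -0.24 for the time slope and Fgf21 -1.89 and Igf1 0.35 for titles. Averaging all probes of a gene gave Igf1 -0.0901 for HF5 minus HFC. Without the time label term the values were Vegfa 0.51 for HF5 minus HFC, Bmp7 -0.16 for HF20 minus HFC, Bmp7 -0.0744 for HF75 minus HFC and Bmp8b 0.25 for titles. Scan date in place of the time label gave Bmp8b 0.41 for HFC minus LFC, Bmp7 -0.0690 and Vegfa 1.02 for HF20 minus HFC, Bmp7 -0.22, Vegfa 0.76 and Igf1 -0.0317 for HF75 minus HFC, Bmp7 -0.24, Vegfa 0.27 and Igf1 -0.0739 for the dose slope and Bmp8b 1.42 for titles. From the deposited series table came Igf1 -0.17 for HFC minus LFC, Vegfa 0.13 for HF5 minus HFC, Igf1 0.30 for HF20 minus HFC, Angptl4 0.0376 for HF75 minus HFC and Nrg4 -0.0160 and Angptl4 0.0773 for the dose slope. Scan date as a random block gave Vegfa 0.00674 for HF5 minus HFC. Array weights gave Nrg4 0.0736, Angptl4 0.16 and Igf1 -0.0928 for HFC minus LFC, Vegfa 1.26 for HF5 minus HFC, Bmp7 -0.86, Vegfa 0.24 and Igf1 0.61 for HF20 minus HFC, Bmp7 -0.16 and Vegfa 0.0700 for HF75 minus HFC, Angptl4 0.0579 for the dose slope and Bmp7 0.0251 for the time slope. Without the arrays with over 10% marked spots they were Nrg4 0.30, Vegfa 0.0380 and Igf1 -0.0392 for HFC minus LFC, Vegfa 0.59 for HF5 minus HFC, Bmp7 -0.0374 and Igf1 0.66 for HF20 minus HFC, Nrg4 -0.20 for HF75 minus HFC, Nrg4 -0.15 for the dose slope and Fgf21 -0.0374 and Bmp8b 0.0258 for titles. Without the arrays titled BA or BAT they were Bmp8b 0.83, Nrg4 0.87 and Vegfa 0.37 for HFC minus LFC, Igf1 -0.22 for HF5 minus HFC, Bmp8b -0.0306 and Igf1 -0.0881 for HF75 minus HFC, Bmp8b -0.00136 and Igf1 -0.11 for the dose slope and Fgf21 -0.11 for the time slope. Slide as a random block gave Bmp7 -0.0129 and Igf1 -0.0174 for the dose slope. Keeping marked spots gave Bmp8b 0.0499 for titles. Without HF20 Week 12 the value was Bmp8b 0.37 for titles. The t-test over all time labels gave Vegfa 0.51 for HF5 minus HFC, Bmp7 -0.16 for HF20 minus HFC and Bmp7 -0.0744 for HF75 minus HFC.

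Leaving out each time label in turn also turned signs, and the values then ran as follows. For HFC minus LFC the range was Bmp8b -0.79 to 0.14, Nrg4 -0.61 to 0.40, Vegfa -0.71 to 0.18 and Igf1 -0.11 to 0.28. For HF5 minus HFC the range was Vegfa -0.86 to 0.62 and Igf1 -0.27 to 0.82. For HF20 minus HFC the range was Bmp7 -0.36 to 0.62, Vegfa -1.29 to 0.23 and Igf1 -0.42 to 0.49. For HF75 minus HFC the range was Bmp7 -0.40 to 0.51, Nrg4 -0.18 to 1.28 and Angptl4 -0.46 to 0.0449. For the dose slope the range was Bmp7 -0.19 to 0.16, Nrg4 -0.0826 to 0.48, Angptl4 -0.0939 to 0.0302 and Igf1 -0.0773 to 0.13. For the time slope the range was Igf1 -0.0116 to 0.11. For titles the range was Fgf21 -0.48 to 1.03 and Bmp8b -1.91 to 1.52.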
